A study of Mus musculus with 2 samples.

Results

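The Kelch-like (Klhl) and ankyrin repeat and SOCS box (Asb) genes encode substrate adaptors of cullin-RING ubiquitin ligases, and their open chromatin was examined in mouse calf muscle. The set held every protein-coding gene of the GENCODE annotation on mm10 whose symbol is Klhl or Asb followed by a number. There were 54 such genes, 36 Klhl and 18 Asb, among 21938 protein-coding gene records. Within the set, 16 genes linked to skeletal muscle by prior knowledge (Klhl30, Klhl31, Klhl33, Klhl34, Klhl38, Klhl40, Klhl41, Asb2, Asb5, Asb10, Asb11, Asb12, Asb14, Asb15, Asb16 and Asb18) were set against the 38 other members.

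The data came from DNase-seq, which reads the ends that DNase I leaves where chromatin is accessible. There was 1 group of 2 libraries, both from the gastrocnemius, the large calf muscle, of female B6CASTF1/J mice aged 14 days. These mice are a hybrid of C57BL/6J and CAST/EiJ, and the deposited positions are on mm10, the C57BL/6J genome. The label of each biosample names 3 females without saying whether tissue was pooled, and both biosamples carry the same donor record. The spread between libraries may therefore be partly technical. Replicate 2 carries the names of a pair of sequencing instruments and replicate 1 carries none, so that instrument and replicate cannot be told apart.

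A Klhl protein binds the cullin CUL3 through its BTB domain and its substrate through Kelch repeats, while an Asb protein binds CUL5 through its SOCS box and elongins B and C. Either way the substrate is brought to the ligase and tagged with ubiquitin. In skeletal muscle several adaptors act on the sarcomere: KLHL40 and KLHL41 stabilise proteins of the thin filament such as nebulin, and their loss causes nemaline myopathy in humans. KLHL31 and ASB2 act on filamins, actin cross-linkers of the muscle cell. Some other members act in many tissues, for example in mitosis, and some are known mainly from testis, neurons or lymphocytes.

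Of the pair of peak lists deposited for each library the shorter is called strict and the longer permissive. Replicate 1 had 87558 strict peaks and replicate 2 had 79562, and 68349 sites were shared by both. The permissive lists held 142031 and 133321 peaks, and the footprint lists 338694 and 301069 footprints. Read totals were not given in the sources used here. Peak signal is a value the authors gave each peak, with a median of 1.53 in both libraries. Of 10 markers of the muscle fibre, 8 had a shared promoter site, with Myh1 and Myh4 without one. Promoters of 4 of 4 endothelial, 3 of 3 fibroblast, 3 of 4 satellite cell and 2 of 2 neuronal markers were open in both libraries. It was 0 of 3 macrophage, 0 of 3 cardiac and 0 of 2 liver markers, beside 63.7% of all protein-coding genes. The cardiac Tnni3 had a strict peak of 1.48 in replicate 1 and a permissive one of 1.20 in replicate 2. Of the macrophage markers, Csf1r had a permissive peak in replicate 2 and Adgre1 in replicate 1. Lists this short say little about the cell types. The samples were whole tissue with several cell types, so that a promoter open in few cells and one weakly open in many cannot be told apart.

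Muscle members had an open promoter about as often as all genes did, and the share among other members was higher. A shared promoter site, a strict peak of both libraries with its midpoint within 1000 bp of a transcription start site (TSS) of the gene, was present at 9 of 16 muscle members (56.25%, Wilson 95% interval 33.2 to 76.9%), at 33 of 38 other members (86.8%, 72.7 to 94.2%) and at 63.7% of all protein-coding genes. Muscle minus other members, the shares differed by -30.59 percentage points. Intervals here cover counting error over genes only. The muscle list was chosen with earlier results of these data known, so that the gap is a description. Among muscle members 5 of 7 Klhl and 4 of 9 Asb genes had such a site, against 26 of 29 and 7 of 9 among the other members. A site could lie at any TSS, and the median number of TSSs was 2 in muscle members, 4 in other members and 3 over all genes. With only the 5′ end of each gene used, 9 of 16 muscle and 29 of 38 other members had a site, a gap of -20.07 points. The gap also depended on the muscle list and on the genes set against it. With the list cut to Klhl31, Klhl40, Klhl41, Asb2, Asb5 and Asb15, 5 of 6 were open (83.3%). Of the other 48 members, which then include the muscle-linked genes cut from the list, 37 were open (77.1%). The share of 83.3% is below the 86.8% of the 38 other members alone. No test was made, since 2 libraries of 1 group allow none and genes are not replicates.

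Promoter signal, that of the strongest promoter peak of a gene in a library, had a median over members, with a gene without a peak at 0, of 1.85 in replicate 1 and 1.76 in replicate 2 in muscle members. It was 6.998 and 6.90 in other members and 2.99 and 2.86 over all protein-coding genes. No muscle member reached the signals of the 2 highest other members, Klhl28 and Asb7, in either library, but the strongest sites of both lay nearer to another gene. A signal above 10 was reached by 2 muscle members in replicate 1 and 1 in replicate 2, and by 12 and 13 other members.

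Asb5, whose product has been linked to satellite cells, had the highest value of the muscle members, 14.8 in replicate 1 and 14.4 in replicate 2. Asb15, an adaptor expressed in muscle and linked to myoblast growth, followed with 11.0 and 8.78. In both genes the strongest site lay nearer to another gene. The Asb5 site, chr8:54529941-54530160, was 470.5 bp from a TSS of Asb5 and 52.5 bp from one of Spcs3, a subunit of signal peptidase. The Asb15 site, chr6:24527561-24527760, was 483.5 bp from Asb15 and 90.5 bp from Ndufa5, a subunit of respiratory complex I. With sites within 1000 bp of another gene's TSS left out, Asb5 kept 1.74 and 1.83, from a peak at its second start, and Asb15 had none. The other 7 open muscle members had their strongest site to themselves. Among the other members 6 genes shared a promoter site with a neighbour: Asb3, Asb7, Klhl10, Klhl18, Klhl28 and Klhl9. Klhl10, known for its role in spermatids, had 6.81 and 5.87, but its site was 816.5 bp from its own TSS and 11.5 bp from that of Nt5c3b.

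The stretch of the Asb5 site outside annotated untranslated regions, chr8:54529999-54530160, is given on the plus strand to show the letters of a shared promoter, and no E-box or MEF2 consensus is marked in it, although the site holds 4 matches of the SP/KLF box GGGCGG. Here and below, sequences were read from RefSeq's GRCm38.p6 genome, 5′ to 3′ on the strand of the gene, and capitals mark the E-boxes CAGCTG and CAGGTG (or its reverse, CACCTG) and the MEF2 consensus. An E-box is the site type bound by MYOD and related factors, and MEF2 factors are regulators of muscle genes.
Asb5 and Spcs3: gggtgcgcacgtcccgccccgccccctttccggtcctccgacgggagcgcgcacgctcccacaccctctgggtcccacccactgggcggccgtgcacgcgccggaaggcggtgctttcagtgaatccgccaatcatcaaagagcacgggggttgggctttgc

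Asb10, an adaptor also studied in the eye, had 6.30 and 5.70, at a site that overlaps coding exon of the gene. Klhl38 had 4.46 and 2.88, the largest ratio between libraries of any muscle member. Klhl40 had 3.12 and 2.31, and Klhl33 had 2.59 and 1.96. Asb2 had 2.24 and 2.19 and Klhl31 had 2.24 and 2.11, close to each other in each library. Klhl34 was lowest of the members open in both libraries, at 1.47 and 1.57. The order of Asb5, Asb15, Asb10, Klhl38 and Klhl40 was the same in both libraries, and that of Klhl33, Asb2 and Klhl31 was not.

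The next stretches show which of the marked letters open muscle promoters hold. The Klhl40 stretch, chr9:121777551-121777606, lies before RefSeq's start of the gene and has an E-box. A 30-base stretch farther on, chr9:121777651-121777680, printed as the target site, has a MEF2 match that overlapped a footprint of both libraries. That name marks only the consensus match, and binding of a factor was not tested. The stretch lies after RefSeq's start, in an untranslated region of the transcript. Both belong to a site of 2.03 and 2.29, while the strongest peak of Klhl40 lay 483.5 bp after a TSS. The Klhl33 stretch, chr14:50897508-50897680, belongs to a site of 1.55 and 1.49, weaker than the strongest of the gene, and has a MEF2 match that overlapped a footprint of replicate 2 only. The Asb10 stretch, chr5:24540601-24540820, has 3 E-boxes, of which 2 overlapped footprints of both libraries.
Klhl40 before the start: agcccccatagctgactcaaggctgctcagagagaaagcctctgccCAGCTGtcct
Klhl40 target site: tgggcatcctCTATATATAGcccagggcag
Klhl33: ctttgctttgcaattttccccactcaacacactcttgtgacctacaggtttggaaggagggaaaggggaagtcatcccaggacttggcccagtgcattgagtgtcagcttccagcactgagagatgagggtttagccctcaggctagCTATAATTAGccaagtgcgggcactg
Asb10: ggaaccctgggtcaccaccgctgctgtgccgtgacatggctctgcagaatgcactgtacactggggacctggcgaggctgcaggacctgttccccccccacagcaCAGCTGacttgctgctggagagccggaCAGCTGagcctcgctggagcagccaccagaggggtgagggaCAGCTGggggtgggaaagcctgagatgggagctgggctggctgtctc

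**Figure D1:**
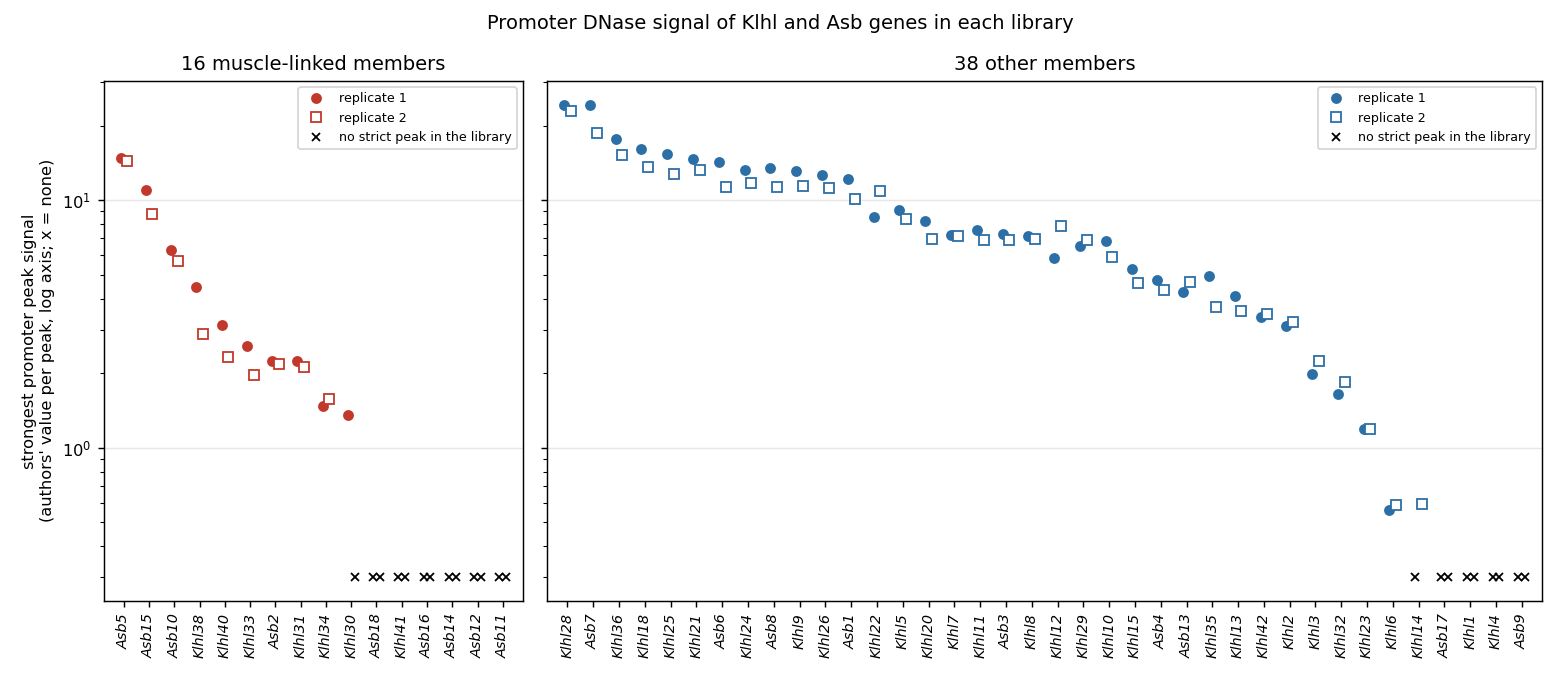
Strongest strict promoter peak signal of each member (authors' value per peak, log axis), with filled circles for replicate 1, open squares for replicate 2 and crosses for no strict peak in that library, 16 muscle-linked members on the left and 38 other members on the right. The open muscle members run down to Klhl34 at 1.47 and 1.57 and Klhl30 at 1.36 in replicate 1 alone, and the other members start at 24.3 and 22.9 in Klhl28.

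Among the other members the highest were Klhl28 at 24.3 and 22.9 and Asb7 at 24.3 and 18.8. Next came Klhl36 at 17.7 and 15.3 and Klhl18, which acts with Aurora kinase A at mitotic entry, at 16.1 and 13.7. Klhl25, an adaptor for the translation repressor 4E-BP1, had 15.3 and 12.7, and Klhl21, which brings Aurora kinase B to the midzone in cell division, had 14.7 and 13.2. Klhl6, known for its role in B lymphocytes, was lowest of those open in both libraries, at 0.558 and 0.585. The strongest Klhl28 site was 166.5 bp from its own TSS and 103.5 bp from that of Togaram1. That of Asb7 was 164.5 bp from its own TSS and 128.5 bp from that of Lins1. With sites within 1000 bp of another gene's TSS left out, Klhl28, Asb7 and Klhl18 had no promoter peak.

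Some members were open in 1 library only, as were 2.72% of all genes. Klhl30 had a strict promoter peak in replicate 1, with a signal of 1.36, and a permissive one of 1.08 in replicate 2. Klhl14 had one in replicate 2, with 0.592, and a permissive one of 0.509 in replicate 1. Both were near the lower end of the members' signals.

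No strict promoter peak in either library was found at 6 of 16 muscle members, at 4 of 38 other members and at 33.5% of all genes. The muscle members were Klhl41, Asb11, Asb12, Asb14, Asb16 and Asb18. Klhl41, the thin-filament adaptor, had permissive peaks of 0.459 and 0.552, with a lowest false discovery rate of the cut rate of 0.0141 in replicate 1 and 0.00249 in replicate 2. Asb16 had a permissive peak of 0.742 in replicate 1 and none in replicate 2. Its lowest rates within 1000 bp of the start were nonetheless 4.95e-11 in replicate 1 and 2.90e-07 in replicate 2. There, 79 and 54 bases had a rate below 0.001. Asb11, Asb12, Asb14 and Asb18 had no peak in any list, and no base within 1000 bp of their starts was listed with a false discovery rate below 0.05. Of the other members, Klhl1, a neuronal adaptor, and Klhl4 had a permissive peak in replicate 1 only, of 0.247 and 0.226. Asb9, which binds creatine kinase, and Asb17, a testis gene, had none in any list. A missing peak says only that openness was not detected at the depth of these libraries.

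The promoter sequences of muscle members were poor in CpG. In the window from 250 bp before to 50 bp after the 5′ end of the gene, the ratio of observed to expected CpG had a median of 0.264 in muscle members, 0.685 in other members and 0.525 over all protein-coding genes. A ratio over 0.6, a level chosen after the data were seen, occurred in 0 of 16 muscle members, in 21 of 38 other members and in 44.3% of all genes. Each of these 21 other members had a shared promoter site, as did 93.8% of all genes with a ratio over 0.6. At a ratio of at most 0.6, 9 of 16 muscle members, 12 of 17 other members and 39.7% of all genes had one. Muscle minus other members, the shares at a ratio of at most 0.6 differed by -14.34 percentage points, against -30.59 over all members. The ratio was read at the 5′ end of the gene only, while a site could lie at another TSS. In Asb8, with a ratio of 0.245, the strongest site was chr15:98145601-98145800 and the 5′ end was at 98165625. The split by ratio therefore does not always describe the promoter that was open.

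**Figure D2:**
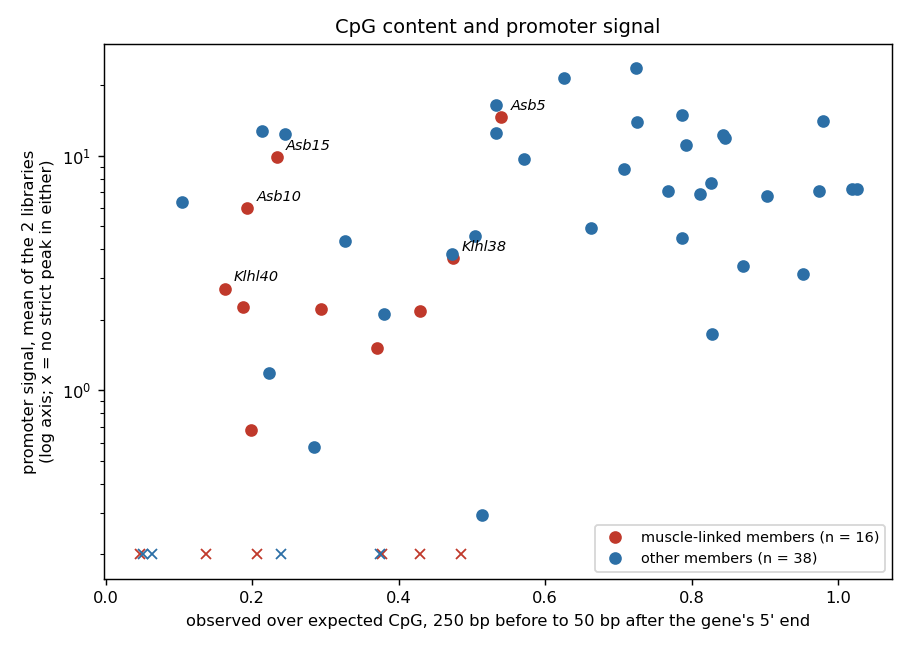
Promoter signal, mean of the 2 libraries with a library without a peak at 0 (log axis; crosses for no strict peak in either), against the ratio of observed to expected CpG around the 5′ end, with red for 16 muscle-linked and blue for 38 other members. Red points all lie left of 0.6, and the blue points right of it all have a promoter peak. The peak can lie at another TSS than the 5′ end.

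The motif content of promoters was read from the RefSeq promoter table on GRCm38.p6, which gives 300 bp around each gene start and matched 47 of 54 members by symbol, 14 of 16 muscle members and 33 of 38 others. Asb3, Klhl14, Klhl24, Klhl30, Klhl38, Klhl42 and Klhl8 had no entry. Exact matches were sought on both strands, motifs may overlap each other, and the MEF2 consensus and CArG box are named without letters because they hold ambiguous bases. A MEF2 match was present in 5 of 14 muscle members (35.7%), in 0 of 33 other members and in 0.575% of the 16522 genes of the table. The 5 genes were Asb12, Asb16, Asb18, Klhl33 and Klhl41, and their matches began 48, 58, 11, 50 and 63 bp before the gene start.

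Of these 5 genes only Klhl33 had a shared promoter site. Klhl40, which also had one, is not among the 5. Its MEF2 match at chr9:121777661-121777670, in a footprint of both libraries, lies just beyond the 300 bp read here. A strict peak of both libraries lay over the match itself in 1 of 5 muscle members and in 21 of the 95 genes with a MEF2 match (22.1%). Permissive peaks covered the match of Klhl41 in both libraries and that of Asb16 in replicate 1. Among all 95 genes, 57 (60.0%) had a shared promoter site. The bases before the start of Klhl41, chr2:69669870-69670119, and Asb12, chrX:95478130-95478379, are printed as promoters with a MEF2 match and no strict peak.
Klhl41: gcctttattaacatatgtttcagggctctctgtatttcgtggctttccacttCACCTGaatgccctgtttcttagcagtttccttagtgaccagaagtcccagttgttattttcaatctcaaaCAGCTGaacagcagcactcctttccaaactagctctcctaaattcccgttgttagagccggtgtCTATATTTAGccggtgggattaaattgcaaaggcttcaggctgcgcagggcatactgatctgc
Asb12: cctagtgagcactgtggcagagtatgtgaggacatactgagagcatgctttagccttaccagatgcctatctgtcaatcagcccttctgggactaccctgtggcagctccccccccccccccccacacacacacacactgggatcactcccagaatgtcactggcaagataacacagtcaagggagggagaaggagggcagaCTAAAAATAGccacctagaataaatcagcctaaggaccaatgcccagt

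The E-box CAGCTG was present in 7 of 14 muscle members, in 9 of 33 other members and in 17.7% of all genes. The muscle members were Asb2, Asb5, Asb16, Asb18, Klhl34, Klhl40 and Klhl41, of which Asb16, Asb18 and Klhl41 also had the MEF2 match. The E-box CAGGTG occurred in 2 of 14, in 6 of 33 and in 22.2%. The TEAD motif CATTCC was found in 2 of 14, in 6 of 33 and in 15.2%. A CArG box, bound by serum response factor, was present in Asb2 and Asb5, in 0 of 33 other members and in 1.75% of all genes. The SP/KLF box GGGCGG, which is common in CpG-rich promoters, was present in 1 of 14 muscle members, in 24 of 33 other members and in 51.0% of all genes. The ETS motif CCGGAAG was found in 0 of 14, in 8 of 33 and in 13.4%. Other motifs sought were rare in muscle members. MEF3, TCAGGTTTC, was found in 0 of 14, in 1 of 33 and in 0.533%, and AP-1, TGANTCA, in 1 of 14, in 3 of 33 and in 8.15%. The NRF1, CREB, CTCF and glucocorticoid or androgen receptor motifs were each in 0 of 14, in at most 1 of 33 and in at most 6.82%. A match is a stretch of letters and not evidence that a factor binds there.

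**Figure D3:**
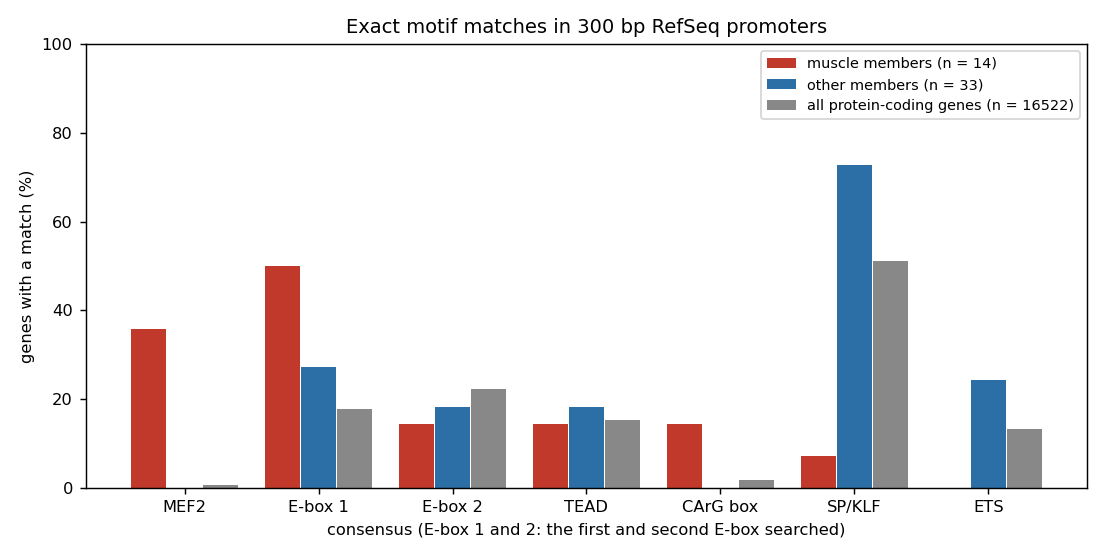
Percent of genes with an exact match in 300 bp RefSeq promoters, with red bars for 14 muscle-linked members, blue for 33 other members and grey for 16522 protein-coding genes; E-box 1 is CAGCTG and E-box 2 is CAGGTG. MEF2 stands at 35.7% in muscle members and SP/KLF at 72.7% in other members. Not every motif sought is drawn.

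The same motifs were counted in 200 bp around the midpoints of the shared sites. CAGCTG was present in 6 of 16 promoter sites of muscle members, in 15 of 56 of other members and in 15.1% of all shared promoter sites. In distal sites its shares were close together, 11 of 34, 24 of 74 and 28.7%. MEF2 matches were present in 2 of 16 promoter sites of muscle members (Klhl33 and Klhl40), in 0 of 56 of other members and in 0.288% of all. In distal sites it was present in 1 of 34, 1 of 74 and 0.744%. The glucocorticoid or androgen receptor motif ACANNNTGT occurred in 5 of 34, 2 of 74 and 5.75% of distal sites. The TEAD motif was present in 6 of 34, 7 of 74 and 12.8% of distal sites. GGGCGG was present in 7 of 16 promoter sites of muscle members, in 34 of 56 of other members and in 54.6% of all shared promoter sites. AP-1 was present in 2 of 34, 1 of 74 and 9.51% of distal sites. MEF3 was in 0 of 16 promoter and 0 of 34 distal sites of muscle members.

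Distal sites, shared sites over 1000 bp from every protein-coding TSS whose nearest such TSS within 50 kb was that of the member, numbered 34 at muscle members and 74 at other members. At least 1 was present at 11 of 16 muscle members (68.75%), at 24 of 38 other members (63.2%) and at 49.2% of all genes. The mean per gene was 2.12, 1.95 and 1.48, and the median 1.5, 1 and 0. These numbers differ little between muscle and other members, and without the gene with most sites in each the mean was 1.53 in muscle members (Asb2 left out) and 1.73 in other members (Klhl29 left out).

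Asb2, which directs filamins to the proteasome, had 11 distal sites, and 322 genes (1.47% of all) had as many or more. Its strongest site lay 9.90 kb after a TSS, in an intron, at chr12:103325581-103325780, with 6.92 in replicate 1 and 6.00 in replicate 2. The next, at chr12:103353601-103353860, was 2.27 kb after a TSS with 6.01 and 4.53. Both exceeded the strongest promoter peak of the gene in both libraries. A weaker site 6.55 kb before the gene, with 3.72 and 2.83, had a MEF2 match and an E-box that both overlapped footprints of both libraries, and is printed for that reason from chr12:103362401-103362700. Its second marked E-box lies outside the 200 bp counted.
Asb2 upstream: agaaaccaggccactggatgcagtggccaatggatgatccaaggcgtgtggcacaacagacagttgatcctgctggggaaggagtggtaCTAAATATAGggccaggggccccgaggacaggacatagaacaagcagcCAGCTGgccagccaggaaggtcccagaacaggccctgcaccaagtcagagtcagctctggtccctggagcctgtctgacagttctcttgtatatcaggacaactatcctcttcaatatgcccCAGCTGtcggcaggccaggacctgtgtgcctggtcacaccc

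Klhl31, needed for normal growth of mouse skeletal muscle, had 6 distal sites. Its strongest, with 3.15 and 2.97, was in an intron 1.06 kb after the start, chr9:77637461-77637660, and was higher than its promoter peak. A second had 2.08 and 2.62 and lay 39.9 kb upstream, with a CTCF core match in a footprint of both libraries. Asb16 had no promoter peak in the strict lists, but its only distal site, chr11:102267541-102267720, lay 1.11 kb upstream with 4.80 and 4.53. Both sites lay just outside the promoter limit, and the muscle members' sites nearest to it on the inside were those of Klhl33 and Klhl34, at +805.5 and -694.5 bp from a TSS. The TEAD match of the Asb16 site, not in capitals, overlapped a footprint of both libraries, and its E-box overlapped none. Both sites are printed as strong sites near muscle members with weak or missing promoter peaks.
Klhl31 intron: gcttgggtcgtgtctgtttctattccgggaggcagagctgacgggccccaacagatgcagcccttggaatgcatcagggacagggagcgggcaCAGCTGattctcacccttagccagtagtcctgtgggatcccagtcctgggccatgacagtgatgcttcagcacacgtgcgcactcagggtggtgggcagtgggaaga
Asb16 upstream: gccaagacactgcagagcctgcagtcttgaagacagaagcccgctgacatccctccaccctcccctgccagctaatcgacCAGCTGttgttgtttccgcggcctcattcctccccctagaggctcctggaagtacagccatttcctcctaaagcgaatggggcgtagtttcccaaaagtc

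The other muscle members had at most 3 distal sites each. Klhl33 had 3.44 and 1.81 in its own exon, 1.18 kb from a TSS, which was the muscle site with the highest centred log2 ratio of replicate 1 to replicate 2, 0.79. Asb10 had 2.86 and 2.71 in its exon. Klhl30 had a pair of sites in exons of its neighbour Espnl, the stronger with 2.27 and 1.99. Asb18, without a promoter peak, had sites of 1.74 and 1.54 and of 1.57 and 1.49. Asb5 had 3 distal sites of up to 1.67 and 1.78, and Asb15 had 3 of up to 1.64 and 1.18. Klhl38 had 1.92 and 1.50 at the stronger of its pair. Asb11 had 1 intron site of 1.14 and 1.17, its only open site.

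Klhl34, Klhl40, Klhl41, Asb12 and Asb14 had no distal site. For Klhl41 the nearest shared site was 22.9 kb away, for Asb12 33.2 kb and for Asb14 67.4 kb.

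**Figure D4:**
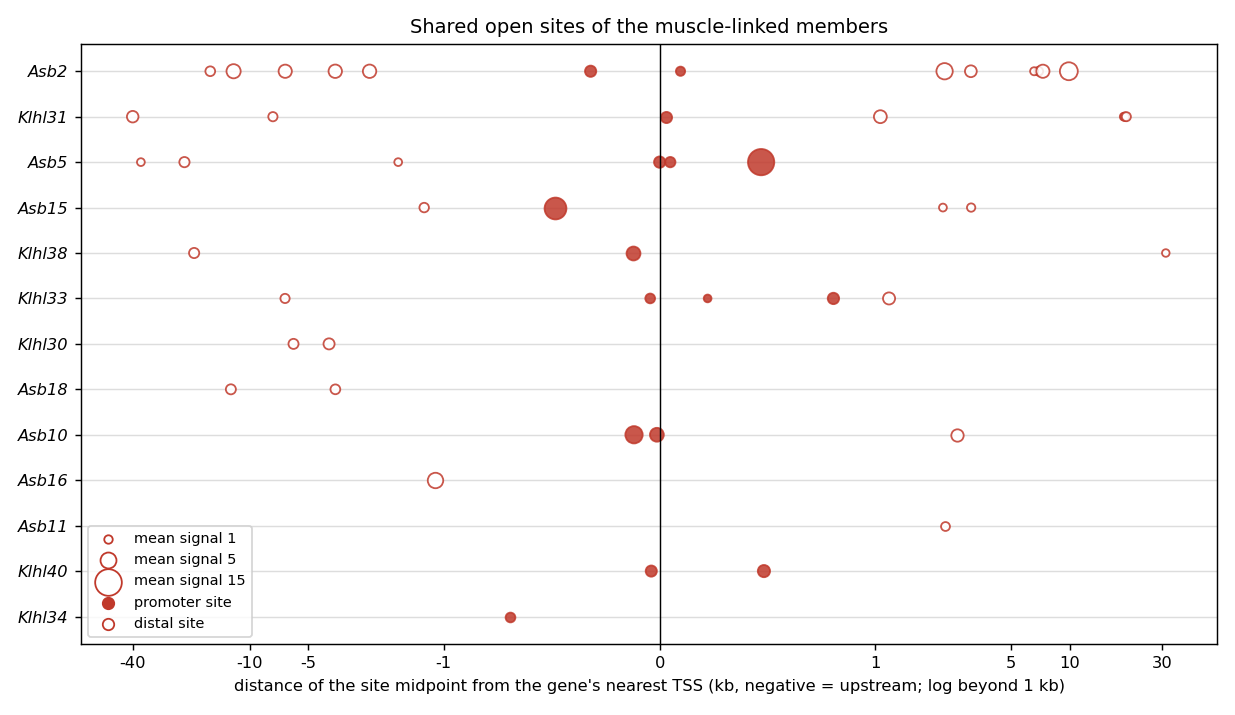
Shared promoter sites (filled) and distal sites (open) of the muscle-linked members that had any, by distance of the site's midpoint from the nearest TSS of the gene in kb (negative is upstream, log beyond 1 kb), with the circle area growing with the mean signal of the 2 libraries. Asb2 has 11 distal sites on both sides of its start, and the large filled circles are the sites of Asb5 and Asb15.

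By count, distal sites of muscle members lay nearer to a start than those of other members. Within 10 kb lay 23 of 34 (67.6%) at muscle members, 29 of 74 (39.2%) at other members and 46.1% of all distal sites, and it was 14 of 23 (60.9%) at muscle members without Asb2 and 27 of 64 (42.2%) at other members without Klhl29. The median distance was 6.56 kb, 16.4 kb and 11.3 kb. In exons lay 7 of 34 (20.6%), 2 of 74 (2.70%) and 7.68%. Of these 7 sites, 3 were at Klhl31, 2 at Klhl30, 1 at Asb10 and 1 at Klhl33. The 3 at Klhl31 lay side by side between chr9:77655341 and chr9:77656180. They were weak, with at most 1.22 in replicate 1 and 1.24 in replicate 2.

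Among the other members Klhl29 had 10 distal sites (2.02% of genes had as many or more) and Klhl25 had 7. Asb4, an adaptor studied in vascular development, had 5, and 9.22% of all genes had 5 or more. A further 6 members had 4 each. The strongest distal site of Klhl29 had 5.65 and 5.32 and lay 34.9 kb upstream. Klhl6 had a distal site of 10.4 and 9.11 that lay 49.5 kb upstream, near the limit of assignment, against a promoter signal of 0.558 and 0.585.

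Footprints, short protected stretches within open chromatin, were counted where those of both libraries overlapped, as 1 merged stretch. At least 1 was present in 15 of 16 promoter sites of muscle members, in 48 of 56 of other members and in 82.6% of all shared promoter sites. The mean per site was 2.06, 2.70 and 2.56. For distal sites the shares were 30 of 34, 62 of 74 and 91.9%, and the means 1.94, 1.53 and 1.94. The promoter difference turned its direction with footprints of either library counted, when the means were 4.62 in muscle and 4.25 in other members. The promoter site of Klhl34 held 3 footprints in replicate 1 and 0 in replicate 2.

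Motif matches were often outside footprints. Of CAGCTG matches, 3 of 9 in promoter sites and 1 of 14 in distal sites of muscle members overlapped a shared footprint, against 25.4% and 29.4% of the matches in all shared sites of each class. Of CAGGTG matches in distal sites of muscle members, 5 of 7 did, against 39.8% in all distal sites, and 3 of these 5 were at Asb2. Of ACANNNTGT matches in distal sites of muscle members, 0 of 6 overlapped a shared footprint, against 20.5% in all distal sites.

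The values of the libraries were compared at shared sites only, which leaves out the promoter peaks of Klhl30 and Klhl14. Over all shared sites, log2 of replicate 1 over replicate 2 had median 0.14 and SD 0.30, and ratios were centred on that median. After centring, 0 of the 50 muscle and 0 of the 130 other sites differed by more than 1 on the log2 scale, beside 0.144% of all shared promoter sites and 0.409% of all shared distal sites. With shares this small, counts of 0 show nothing particular to the members. Muscle sites ran between -0.84 at a site 31.3 kb from Klhl38 and 0.79 at the exon site of Klhl33.

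The partners that the adaptors share were open throughout. Of 14 genes of the cullin ligase core and its modifiers, 14 had a shared promoter site, beside 63.7% of all genes, with median signals of 12.3 in replicate 1 and 9.58 in replicate 2. Cul3, the scaffold of the Klhl proteins, had 13.6 and 10.8, and Cul5, that of the Asb proteins, had 14.7 and 11.9. Of the RING protein genes, Rbx1 had 25.5 and 22.1 and Rnf7 had 27.1 and 24.4. Of the elongin genes, Elob had 6.78 and 6.35 and Eloc had 6.91 and 5.95.

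Known partners or substrates of muscle adaptors had a shared promoter site too, in each of the genes given here. Neb, the target of KLHL40 and KLHL41, had 2.62 and 2.23, and Lmod3 had 0.869 and 0.924. Nrap, bound by KLHL41, had 1.73 and 1.56. Of the filamins, Flnc, the muscle form, had 2.74 and 2.96, and Flna had 5.62 and 5.35. Flnc had 8 distal sites.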

How the data were processed

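DNase-seq of 2 gastrocnemius libraries was read from the deposited lists. Per the labels, all are on mm10 and made per library, with replicates not pooled. Aligner, callers and versions: not given in the sources used here. For each peak, the deposited signal (column 7) is the authors' own, with no scaling stated. The deposited q-values are false discovery rates of the cut rate per base, listed only below 0.05, and the authors gave each footprint 1 level, 0.01.

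Of a pair of peak lists per library, the one with fewer rows was taken as strict. Overlapping peaks (at least 1 bp) were merged, and sites with a peak of each library kept. TSSs came from all transcripts of protein-coding genes in GENCODE vM21, and coordinates are 1-based. Motifs were exact matches on the reference genome. Counting was tested on simulated data. Python 3.11.15, pandas 2.3.3 and pysam 0.24.0 were used. The members, the muscle list, the partner list and the alternatives were chosen with earlier results of these data known. All muscle members are named, with the 6 other members of highest promoter signal, the 3 with most distal sites (6 tied for the next place) and those open in at most 1 library. Klhl6, Klhl10, the Asb8 promoter site and Klhl29's distal site were named after their values were seen, as were the CpG comparison, the sites' positions and the RefSeq promoter motifs.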

Additional observations from a re-analysis of the deposited data

How the results depend on the processing

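Values here are muscle minus other members. Wherever the list of 6 is used, the muscle-linked genes cut from it count among the other members. The gap in shared promoter sites, -30.59 percentage points, turned to 6.25 with the muscle list cut to 6 genes, and it kept its direction under the 11 other settings, at -33.22 to -24.34 with 1 library left out. This gap was -20.07 with gene 5′ ends only, -18.09 with a window of 2500 bp and -14.34 at a CpG ratio of at most 0.6. The median promoter signal differed by -5.117 and stayed lower under every setting run. It was -5.484 with the stronger 50% of peaks, -2.277 with the list of 6, -4.68 with Asb8 added, -5.865 and -4.257 with windows of 500 and 2500 bp, and -3.794 with gene 5′ ends only. Chosen after seeing the data, leaving out sites at another gene's TSS gave -3.3 and a CpG ratio of at most 0.6 gave -1.972. With 1 library left out it was -5.144 to -5.135.

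The mean number of distal sites differed by 0.1776, and its direction was not stable: 2.062 with the list of 6, 0.7697 within 20 kb, -0.4803 within 100 kb, and -0.2039 (replicate 2 left out) to 0.2007 (replicate 1 left out). Footprints per promoter site differed by -0.6339, by -0.947 with the permissive list, by -0.254 with the list of 6, by 0.375 with footprints of either library, and by -0.03455 (replicate 1 left out) to 0.1951 (replicate 2 left out). The causes were not tested. The share of promoter sites with CAGCTG was higher by 10.71 points, by 18.75 in windows of 100 bp and by 7.143 in windows of 400 bp. No paired analysis was possible because there was 1 group. Unknown read depth limits every statement on a missing peak.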
